A study of Mus musculus with 6 samples.

Results

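The 10 genes described here, Fos, Fosb, Jun, Junb, Jund, Egr1, Atf3, Ier2, Zfp36 and Dusp1, are immediate-early and stress-response genes of the mouse. They were taken by gene symbol, and all 10 had a row among the 12560 genes of the deposited table. Immediate-early genes are switched on within minutes of a growth factor, a mechanical load or an injury, without new protein synthesis, and their transcripts decay quickly. Fos and Jun proteins pair through leucine zippers into the transcription factor AP-1, which in cartilage is known for driving matrix proteases and for a part in chondrocyte differentiation. The remaining members either regulate transcription alongside AP-1 (Egr1, Atf3, Ier2) or end the response by destroying short-lived mRNAs (Zfp36) or by dephosphorylating the kinases that start it (Dusp1).

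RNA had been sequenced from samples labelled as chondrocytes of control mice (3 libraries) and of Eldr cKO mice (3 libraries), Eldr being a long noncoding RNA that the series title ties to chondrocyte senescence. The comparison asks how these genes differ when Eldr is conditionally deleted. The age of the mice, the Cre driver and the alleles that controls carry are not given in the sources used here, nor is whether the libraries of a group come from separate animals, so p-values rest on a spread that may be technical. The level of Eldr was not analysed here, and the deletion therefore stands as labelled. Values are FPKM, in which fragments are scaled to exon length and to the total of the library.

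Depth differed widely and was low. From the steps between small FPKM values it was estimated at 466916, 79477 and 131919 fragments in control 1, 2 and 3 and at 192832, 52354 and 56364 fragments in Eldr cKO 1, 2 and 3. The 3 deepest libraries are therefore control 1, Eldr cKO 1 and control 3. Between 33.8% and 70.0% of the summed FPKM of a library fell on mitochondrial genes and between 3.07% and 48.8% on repeat-rich predicted genes, the latter highest in Eldr cKO 2 and 3. The labelled cell type was poorly marked: of 14 core cartilage genes 5 were present in the table, none of them detected in every one of the 6 libraries, and they summed to 0.616 to 12.5 FPKM. The 12 heart muscle genes, 10 of them detected in every library, summed to 1017 to 9419 FPKM. Heart muscle levels were highest in control 1 and Eldr cKO 1, and whether they bear on the values below was not tested. In bulk RNA, fewer cells of a type and less RNA per cell cannot be told apart.

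The promoters of 4 members are shown as examples from different detection patterns: Fos and Dusp1 were listed at 0 in the same 3 libraries, Jun in none and Zfp36 in control 2 alone. Whether promoter sequence bears on detection was not tested. Each line gives the RefSeq sequence (GRCm38.p6) around 1 motif on the gene's own strand, 5′ to 3′, with the motif in capitals.
Fos, chr12:85473794-85473858, plus strand: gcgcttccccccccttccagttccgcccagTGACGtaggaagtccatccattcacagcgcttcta
Dusp1, chr17:26508578-26508645, minus strand: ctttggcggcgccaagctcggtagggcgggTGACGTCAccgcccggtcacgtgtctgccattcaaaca
Jun, chr4:95052230-95052297, minus strand: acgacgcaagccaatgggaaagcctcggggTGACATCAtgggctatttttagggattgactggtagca
Zfp36, chr7:28379247-28379316, minus strand: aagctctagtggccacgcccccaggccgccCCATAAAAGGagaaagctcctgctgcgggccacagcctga

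Promoter windows from 250 bases before to 50 bases after the start site were found for 8 of the 10 members. The full cAMP response element TGACGTCA, the site of CREB and ATF proteins, was searched on both strands and lay in 1 of the 8 (Dusp1, first base 143 bases before the start site) and in 1.79% of 32851 promoters. Its half-site TGACG, which the full element also contains, lay in 5 of the 8 (Atf3, Fosb, Junb, Fos and Dusp1) against 20.8% of all promoters. Fos carried it 66 bases and again 129 bases before its start. The variant TGACATCA, a near match to the AP-1 site, lay 45 bases before the Jun start and in 3.62% of promoters, and the AP-1 site itself (TGACTCA or TGAGTCA) lay in 0 of the 8 against 5.20% of promoters. A CArG box, the site of serum response factor, lay 58 bases before the Zfp36 start and in 1.63% of promoters. Distances are from the RefSeq start site, which for Zfp36 and Dusp1 lies inside the gene span given below, so it is the start of another transcript than the outermost one. These matches describe the letters of each window and were set against no binding data.

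Of the Jun family, Jun and Junb were detected in every library and Jund was not. Jun, the main partner of Fos proteins (chromosome 4, 95049034 to 95052222, a single-exon gene; GRCm38 here and below), measured 18.3, 31.2 and 14.6 FPKM across the controls, against 35.0, 30.7 and 49.2 FPKM across the Eldr cKO libraries, always in the order of libraries 1, 2 and 3. The groups overlapped only in that control 2 lay just above Eldr cKO 2. These values stood on an estimated 27.3, 7.91 and 6.14 fragments in the controls and on 21.5, 5.12 and 8.85 fragments in Eldr cKO. The log2 fold change of FPKM + 1, Eldr cKO minus control, was 0.85 (SE 1.24; limma, adjusted p = 1.00). The mean was 38.3 FPKM ± 9.70 (SD, n = 3) in Eldr cKO and 21.4 FPKM ± 8.71 (SD, n = 3) in the controls. A two-sided exact permutation test of the difference in mean log2(FPKM + 1) did not separate it from the spread (p = 0.20). With 3 libraries against 3 that test cannot give a p under 0.10.

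Junb, a Jun protein that often restrains Jun (chromosome 8, 84974484 to 84978718), measured 9.96, 10.9 and 16.4 FPKM across the controls, against 37.0, 16.7 and 6.36 FPKM across the Eldr cKO libraries. It too was above 0 throughout, and the Eldr cKO libraries held both its highest and its lowest value. The estimate behind the value was 2.01 fragments in Eldr cKO 2 and 0.825 in Eldr cKO 3. Its log2 fold change was 0.37 (SE 1.31; limma, adjusted p = 1.00), and it was -0.21 without Eldr cKO 1. Leaving out control 1 gave 0.24, control 3 gave 0.58 and Eldr cKO 3 gave 0.98. An exonic stretch of 173 bases of Junb overlaps Prdx2, a peroxiredoxin gene on the opposite strand listed at 6.26 to 68.8 FPKM. No source used here states that reads were counted by strand, so reads of the pair cannot be told apart there.

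Jund, the Jun protein usually present without a stimulus (chromosome 8, 70698949 to 70700616, a single exon), measured 12.1, 0 and 59.8 FPKM across the controls, against 71.9, 0 and 19.3 FPKM across the Eldr cKO libraries. Both groups held a high value and a 0, and the 71.9 FPKM of Eldr cKO 1 was the highest value of any member. At its mean of 47.9 FPKM over the 3 deepest libraries, Jund would stand on an estimated 6.35 fragments in control 2 and 4.19 in Eldr cKO 2, where it was listed at 0. Its log2 fold change was 0.30 (SE 1.34; limma, adjusted p = 1.00), and it turned to -1.31 without control 2, -1.04 without Eldr cKO 1 and -0.12 without Eldr cKO 3. It was 0.55 without control 1, 1.65 without control 3 and 2.05 without Eldr cKO 2. The annotated antisense transcript Gm11175 shares 877 exonic bases with Jund, Junos shares 232 with Jun and Gm44710 shares 125 with Zfp36, and these transcripts were not analysed here.

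**Figure D1:**
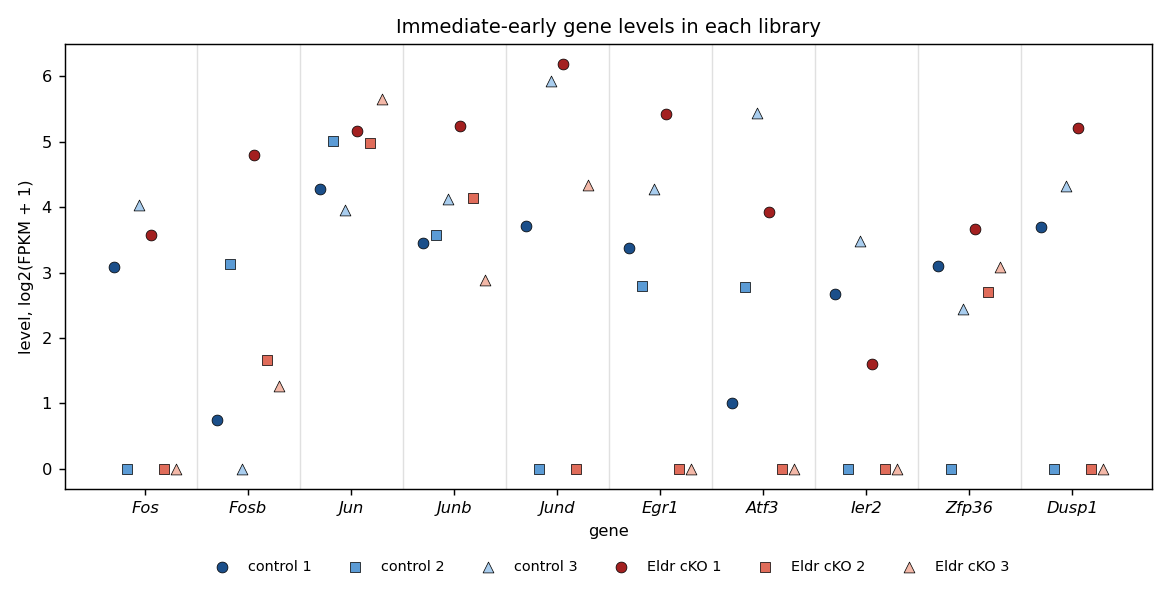
Level of each of the 10 genes in each library as log2(FPKM + 1), with 1 point per library, blues for control 1 to 3 and reds for Eldr cKO 1 to 3. Jun and Junb have no point at 0, while Egr1, Atf3, Fos, Ier2 and Dusp1 lie at 0 in Eldr cKO 2 and 3 and above 0 in Eldr cKO 1.

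Fos and Fosb, which usually bind DNA with a Jun partner, did not share a pattern. Fos (chromosome 12, 85473890 to 85477273) measured 7.48, 0 and 15.4 FPKM across the controls, against 10.9, 0 and 0 FPKM across the Eldr cKO libraries. It was above 0 in the 3 deepest libraries alone, on an estimated 8.22 fragments in control 1, 4.78 in control 3 and 4.93 in Eldr cKO 1. At its mean over those libraries Fos would stand on 2.10 fragments in control 2, 1.39 in Eldr cKO 2 and 1.49 in Eldr cKO 3. On the log2 scale the fold change was -1.18 (SE 1.39; limma, adjusted p = 1.00). Leaving out control 2 or Eldr cKO 1 gave -2.37, control 3 gave -0.35, and Eldr cKO 2 or 3 gave -0.59.

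Fosb (chromosome 7, 19302696 to 19310051) measured 0.666, 7.73 and 0 FPKM across the controls, against 26.7, 2.18 and 1.40 FPKM across the Eldr cKO libraries. A single library, Eldr cKO 1, stood far above the rest with an estimated 32.2 fragments, against 3.84 or fewer in each other library. Control 3 was the library at 0 although it was the third deepest, and a 0 in control 3 alone was found in 0.788% of all rows. That pattern counts Fosb as detected in Eldr cKO 2 and 3, where its values stood on an estimated 0.711 and 0.492 fragments. Its log2 fold change was 1.29 (SE 1.39; limma, adjusted p = 1.00) and was 0.18 without Eldr cKO 1. Leaving out control 2 gave 2.21, control 3 gave 0.64 and Eldr cKO 3 gave 1.94.

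**Figure D2:**
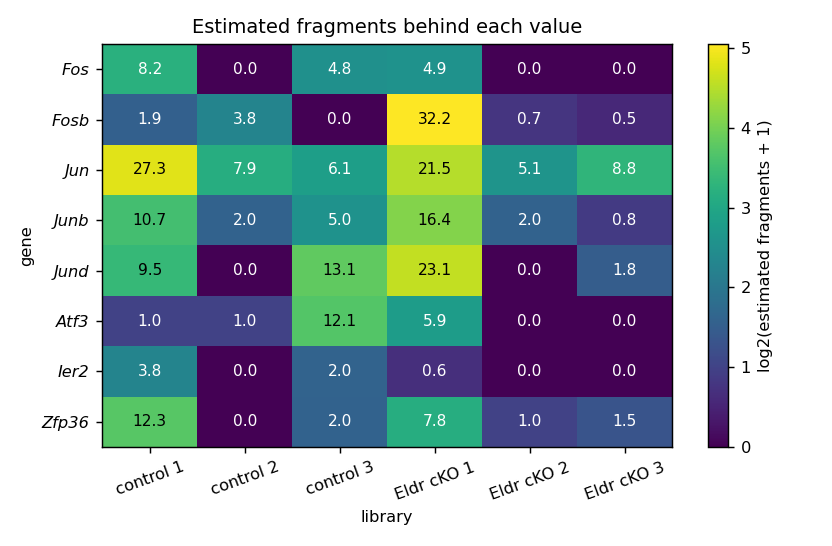
Estimated number of fragments behind each FPKM value, for the 8 genes whose exon length could be matched to the table, by gene (rows) and library (columns), with color on a log2(fragments + 1) scale. Jun reaches 27.3 fragments in control 1 and Fosb 32.2 in Eldr cKO 1, while no gene exceeds 8.85 fragments in control 2, Eldr cKO 2 or Eldr cKO 3.

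Egr1 and Atf3 shared a detection pattern: above 0 in each control and in Eldr cKO 1, and listed at 0 in Eldr cKO 2 and 3. That pattern held in 4.36% of all rows. Egr1, a zinc-finger transcription factor induced through the ERK pathway (chromosome 18, 34859823 to 34864984), measured 9.39, 5.91 and 18.4 FPKM across the controls, against 41.8, 0 and 0 FPKM across the Eldr cKO libraries. The highest value and both values of 0 were thus in the Eldr cKO group, and the log2 fold change was -1.67 (SE 1.37; limma, adjusted p = 1.00). It was -3.48 without Eldr cKO 1, -0.77 without Eldr cKO 2 or 3 and 1.59 in the 3 deepest libraries, where 1 Eldr cKO library stood against 2 controls.

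Atf3, a stress-induced factor of the ATF/CREB family that can also pair with Jun proteins (chromosome 1, 191170296 to 191218039), measured 1.00, 5.88 and 42.5 FPKM across the controls, against 14.2, 0 and 0 FPKM across the Eldr cKO libraries. The values in control 1 and control 2 each stood on an estimated 1.01 fragments, and that of control 3 on 12.1, so the control mean rested largely on 1 library. The log2 fold change was -1.77 (SE 1.39; limma, adjusted p = 1.00), the most negative of a member, and it was -0.58 without control 3. Leaving out control 1 gave -2.80, Eldr cKO 1 gave -3.08, and Eldr cKO 2 or 3 gave -1.11. At 19.3 FPKM, its mean over the 3 deepest libraries, Atf3 would stand on 2.17 fragments in Eldr cKO 2 and 2.34 in Eldr cKO 3.

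Ier2, a short nuclear protein of the early growth response (chromosome 8, 84661331 to 84662852, a single exon), had the lowest median level of the members. It measured 5.38, 0 and 10.1 FPKM across the controls, against 2.02, 0 and 0 FPKM across the Eldr cKO libraries. Its values stood on 3.83, 2.04 and 0.593 fragments in control 1, control 3 and Eldr cKO 1, and at its mean over these libraries under 1 fragment (0.466 to 0.708) would be found in each of the others. Its log2 fold change was -1.52 (SE 1.36; limma, adjusted p = 1.00), and it was -2.55 without control 2 and -0.81 without control 3. In the 3 deepest libraries Ier2 was the member whose log2 fold change stayed negative, at -1.48.

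Neither of the members that end the response passed the test. Zfp36, the RNA-binding protein tristetraprolin, which recruits the decay of mRNAs with AU-rich elements (chromosome 7, 28376784 to 28380253), measured 7.59, 0 and 4.41 FPKM across the controls, against 11.7, 5.54 and 7.51 FPKM across the Eldr cKO libraries. It was above 0 in each Eldr cKO library, and control 2 was the library at 0. On the log2 scale the fold change was 1.31 (SE 1.38; limma, adjusted p = 1.00), the most positive of a member though close to that of Fosb, and it was 0.39 without control 2. The Eldr cKO 2 and 3 values rested on 1.01 and 1.47 fragments.

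Dusp1, a phosphatase that inactivates p38, JNK and ERK kinases (chromosome 17, 26505590 to 26508519), measured 12.0, 0 and 18.9 FPKM across the controls, against 35.9, 0 and 0 FPKM across the Eldr cKO libraries. Like Fos and Ier2 it was above 0 in the 3 deepest libraries alone, a pattern shared by 1166 rows (9.28%). The log2 fold change was -0.94 (SE 1.39; limma, adjusted p = 1.00). It was -2.67 without Eldr cKO 1, -2.28 without control 2, -0.42 without control 1, -0.12 without control 3, -0.07 without Eldr cKO 2 or 3 and 1.19 in the 3 deepest libraries.

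No member passed the test between genotypes. Among the 9007 genes whose mean reached 1 FPKM, limma with Benjamini-Hochberg adjustment at 0.05 called 0 higher and 0 lower in Eldr cKO, a background of 0%, and 0 of the 10 members. At an unadjusted p under 0.05 there were 135 genes (1.50%) and 0 members, Atf3 having the smallest p of a member (limma, unadjusted p = 0.203). The Eldr cKO values lay all above the controls for 134 genes (1.49%) and all below for 221 (2.45%), and the groups overlapped for each of the 10 members. By direction of the log2 fold change alone 5 members were higher and 5 lower, with a median of -0.32. Over all genes tested 4099 were higher and 4908 lower, with a median of -0.13. For Egr1 and Dusp1 this direction depends on the log scale. Their mean FPKM was higher in Eldr cKO, at 13.9 against 11.2 for Egr1 and 12.0 against 10.3 for Dusp1. The intervals were wide: the 95% interval of the log2 fold change ran from -1.58 to 3.29 for Jun, from -3.92 to 1.55 for Fos and from -4.36 to 1.01 for Egr1. Their widths came from the variance trend over all genes and not from each gene's own spread. The SD of log2(FPKM + 1) was 0.54 in the controls and 0.34 in Eldr cKO for Jun. For Egr1 it was 0.75 and 3.13. In the authors' deposited table the p of the members ranged from 0.0812 for Jun to 0.912 for Jund, and the smallest q was 0.761.

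**Figure D3:**
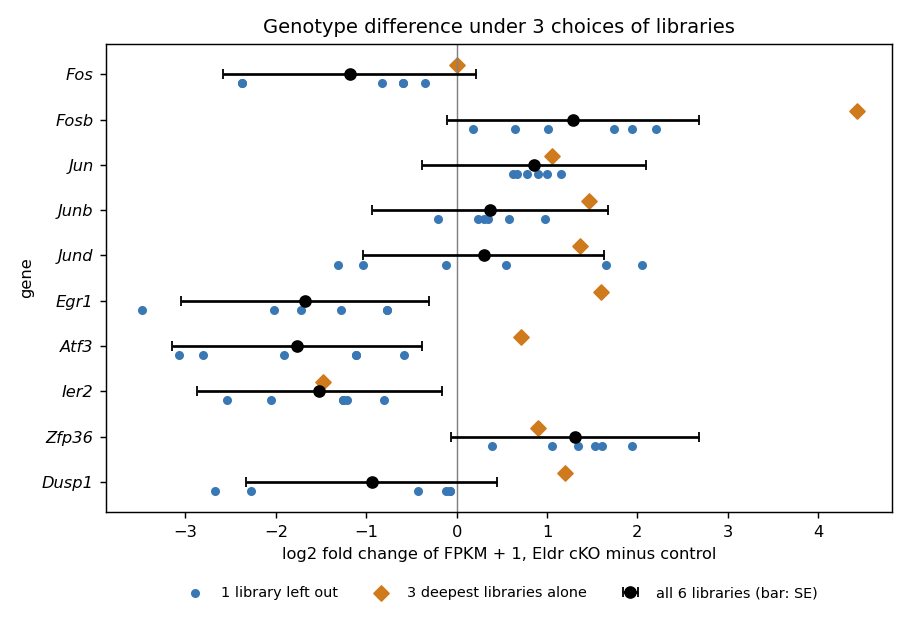
Log2 fold change of FPKM + 1, Eldr cKO minus control, for each gene: black points with SE bars from all 6 libraries, blue points with 1 library left out, orange diamonds from the 3 deepest libraries alone. Jun stays between 0.63 and 1.15 with any 1 library left out, while Egr1, Atf3 and Dusp1 lie below 0 with all libraries and above 0 in the 3 deepest.

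The direction of several members depended on which libraries were compared. In the 3 deepest libraries, a choice made after the values had been seen, 9 of the 10 members had a positive log2 fold change. There Eldr cKO 1 was set against the mean log2(FPKM + 1) of control 1 and 3. In plain FPKM Fos (10.9) and Atf3 (14.2) in Eldr cKO 1 lay above control 1 (7.48 and 1.00) and below control 3 (15.4 and 42.5). The sign for these genes thus depends on the log scale. The median log2 fold change of the members was 1.12 beside 0.30 over all genes tested. In this fit too 0 members were called, and the lone Eldr cKO library was assumed to vary like the controls. Fosb had the largest difference there, 4.43 (limma, unadjusted p = 0.0389, adjusted p = 0.832). Fos was at 0.0087, which is no difference in size. Without Eldr cKO 1, by contrast, 7 members were lower, the median was -1.55 beside -0.68 over all genes tested, and 0 were called. Egr1 had the smallest p there (limma, unadjusted p = 0.0155, adjusted p = 0.693).

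The number of members detected had the same order as depth. All 10 were above 0 in control 1 and in Eldr cKO 1 and 9 in control 3, against 5 in control 2, 4 in Eldr cKO 2 and 5 in Eldr cKO 3. Over all rows 79.1% were above 0 in control 1, 73.6% in Eldr cKO 1 and 62.4% in control 3, against 36.6% to 39.1% in the other 3 libraries. The comparison was also made among 2931 genes above 0 in the 3 deepest libraries at a mean of 5 to 50 FPKM there, which include 9 members. Of these genes 57.4% were above 0 in control 2, 49.2% in Eldr cKO 2 and 58.1% in Eldr cKO 3, beside 4, 3 and 4 of the 9 members. Whether depth accounts for the members listed at 0 was not tested.

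**Figure D4:**
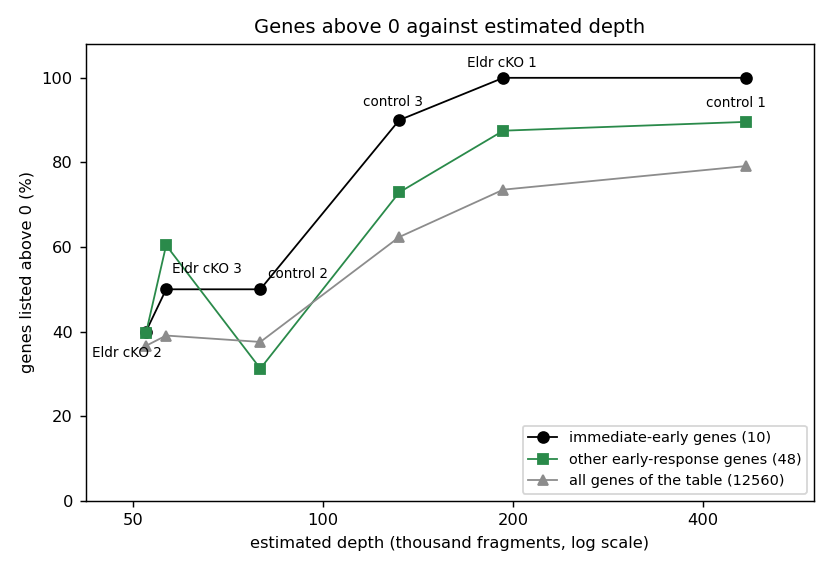
Share of genes listed above 0 in each library against its estimated depth (log scale), for the 10 immediate-early genes, 48 other early-response genes and all 12560 genes of the table, with the libraries named beside the black points. The immediate-early genes rise from 40% in Eldr cKO 2 to 100% in Eldr cKO 1 and control 1.

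Within a library the order of the members changed. Jun was the highest member in control 1, control 2, Eldr cKO 2 and Eldr cKO 3, and Jund in control 3 (59.8 FPKM) and Eldr cKO 1. By median over the 6 libraries the order was Jun (30.9 FPKM), Jund (15.7), Junb (13.7), Egr1 (7.65), Zfp36 (6.52), Dusp1 (6.02), Fos (3.74), Atf3 (3.44), Fosb (1.79) and Ier2 (1.01). No neighbours in this order were separated beyond the range of their values over the libraries, and Jun and Junb were the members with no library at 0. The members summed to 84.0, 61.6 and 201 FPKM in the controls and to 287, 55.0 and 83.8 FPKM in Eldr cKO, so Eldr cKO 1 and control 3 stood above the other 4 libraries. Eldr cKO 1 and control 3 remained the highest after mitochondrial and repeat-rich genes were left out of the total, and control 1 became the lowest. The members then made up 670, 968 and 1604 ppm of the remaining FPKM in the controls and 1942, 791 and 1018 in Eldr cKO. Eldr cKO 1 held the highest value of 6 members (Fosb, Junb, Jund, Egr1, Zfp36 and Dusp1), beside 27.8% of all rows, and control 3 that of Fos, Atf3 and Ier2, beside 23.3%.

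Across the 6 libraries the members did not move as 1 group. Of 45 pairs 33 had a positive Pearson correlation of log2(FPKM + 1), with a median of 0.50. These correlations are descriptive, since the genes share each library's depth and its values of 0. The closest pair was Fos with Dusp1 (0.98), and Jun correlated negatively with Fos (-0.68) and Ier2 (-0.86). Genes whose profile was most like the mean profile of the members included Psmc3, a proteasome ATPase subunit (0.98), Trf, transferrin (0.97), Prrc2b (0.95) and Ppfibp1 (0.95), among 1590 genes above 0 in all 6 libraries. Psmc3 measured 27.4, 9.58 and 34.9 FPKM across the controls, against 53.3, 7.38 and 13.7 FPKM across the Eldr cKO libraries, so it too was highest in the 3 deepest libraries.

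The wider early response gave no call either. Of 54 other early-response genes 48 had a row and 42 were tested, 22 higher and 20 lower in Eldr cKO with a median of 0.20 and 0 called. The 4 most abundant were Zfp36l1, a relative of Zfp36, with a log2 fold change of 0.92 (SE 1.19), Ctgf, a matricellular growth factor (0.54, SE 1.23), Klf6, a zinc-finger factor (-0.73, SE 1.29), and Id1, an inhibitor of basic helix-loop-helix factors (2.53, SE 1.29). Id1 measured 12.1, 0 and 26.9 FPKM across the controls, against 43.0, 33.2 and 46.3 FPKM across the Eldr cKO libraries, without overlap. Klf2 went the other way, at 9.28, 6.85 and 11.1 FPKM across the controls and 0 in each Eldr cKO library, also without overlap. These were the 2 genes of this list with an unadjusted p under 0.05 (limma, adjusted p = 1.00 for both). Over all genes tested 1.50% had such a p. The Eldr cKO values lay all above the controls for 1.49% of genes and all below for 2.45%. Fragments behind the values of Id1 and Klf2 were not estimated. For a transcript of 2 kb, 1 fragment was worth 6.29 FPKM in control 2. In Eldr cKO 1, 2 and 3 it was worth 2.59, 9.55 and 8.87 FPKM.

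Of 27 signalling genes that start the response, 25 were tested, with 7 higher, 18 lower, a median of -0.16 and 0 called. Over all genes tested 4099 were higher and 4908 lower, with a median of -0.13. The 2 genes of this list with an unadjusted p under 0.05 (limma) were Mapkapk2 and Map2k1, both lower. Such a p was found for 1.50% of all genes tested. Map2k1, a kinase of the ERK pathway, measured 2.92, 4.78 and 17.0 FPKM across the controls and 0 in each Eldr cKO library. All 3 Eldr cKO values lay below all 3 control values for 2.45% of genes tested. Fragments behind the Map2k1 values were not estimated. Mapkapk2, the kinase that p38 activates and that phosphorylates Zfp36 protein, measured 27.7, 36.7 and 33.5 FPKM across the controls, against 30.8, 0 and 0 FPKM across the Eldr cKO libraries. Its level in Eldr cKO 1 lay within the range of the controls, and its log2 fold change of -3.40 (SE 1.34; limma, adjusted p = 1.00) came from the 2 libraries at 0. The log2 fold changes of Atf4, a stress-response factor (-1.28, SE 1.29), and Atf2, a Jun partner (0.12, SE 1.33), were smaller than their errors. Among 16 genes often placed downstream of AP-1 or stress signals 11 were tested, 9 higher and 2 lower with a median of 0.47 and 0 called. Fth1, the ferritin heavy chain, was the most abundant and ranged from 435 to 875 FPKM, with a log2 fold change of 0.40 (SE 0.83). Vegfa, an angiogenic growth factor (0.47, SE 1.31), and the metallothioneins Mt1 (1.27, SE 1.22) and Mt2 (-0.83, SE 1.29) followed.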

How the data were processed

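FPKM values per gene and library were used as deposited. The submitters' processing notes name cutadapt, HISAT2 2.0.5 and StringTie and the human build hg19, whereas the IDs are mouse. Of the 12560 rows 11610 lay within 1 bp of GENCODE M21 on GRCm38. Gene spans are given as deposited. For Dusp1 the deposited span ended at 26508519, whereas GENCODE M21 ends the gene at 26562128. The other members had the same start and end in both. Per the file headers the authors also gave a log2 fold change, a linear fold ratio, a p-value and a q-value. The group columns held the authors' mean log2(FPKM + 1). For 94.3% of 6732 genes with several transcripts, deposited values times the union exon length were whole at the sixth decimal (tolerance 0.02), so gene FPKM was read as fragments over that length. This held for 5 members; Jun, Jund and Ier2 have 1 transcript, and Egr1 and Dusp1 were not converted. Depth was the most frequent value of 1/(FPKM × length) over genes with 1 transcript (window 2% on either side). Estimated fragments of 0.5 to 5.5 lay within 0.1 of a whole number for 37.1% to 54.2% of values, where 20% would by even spread, so they are guides, and no count model was used.

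Genes whose mean reached 1 FPKM were tested on log2(FPKM + 1), which shrinks changes of low genes, with limma 3.58.1 in R 4.3.3 (intensity trend, two-sided, Benjamini-Hochberg over all genes tested). All 10 members passed that filter. The prior degrees of freedom were infinite, so each SE came from the variance trend. The script was tested on simulated data. Alternatives were other pseudocounts, filters, scalings, weights and variance priors, a replicate block, each library left out, and the 3 deepest libraries. Members and lists were chosen with earlier results of these data known. Of other lists the 4 genes of highest median FPKM are named, Id1 among them, and the 5 genes most like the members. Klf2, Map2k1 and Prdx2 were named after their values were seen. A further row of the table was empty, and it and some genes that this rule names are not reported here. Tables were handled with Python 3.11.15.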

Additional observations from a re-analysis of the deposited data

How the results depend on the processing

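No member was called under any alternative, with an adjusted p of 0.693 or more for each member in limma. Library quality weights called 2 genes higher and 4 lower in Eldr cKO against 0 and 0, none of them a member, and turned Junb to -0.0097 and Jund to -0.29, with the median of all genes at -0.52 and that of the members at -1.15. In the 3 deepest libraries, added after the data had been seen, Fos turned to 0.0087, Egr1 to 1.59, Atf3 to 0.71 and Dusp1 to 1.19. With 1 library left out Junb ranged from -0.21 to 0.98 and Jund from -1.31 to 2.05, and the other 8 members kept their direction. The median over the members ranged from -1.61 without control 2 to 0.23 without control 3 and was 0.30 at a minimum of 5 FPKM, where Ier2 left the test. Quantile normalization moved the median of all genes from -0.13 to -0.02, and the split of 5 members higher and 5 lower was the same. The number of genes at an unadjusted p under 0.05 ran from 65 at the stricter minimum to 472 in the 3 deepest libraries, against 135. A replicate block cannot move the fold changes of this balanced design (median -0.32); with it 0 genes were called and 223 had an unadjusted p under 0.05; same-numbered libraries correlated at 0.28, 0.15 and 0.095 in their deviations from the group means, each higher than with another number, a hint from the data that no label backs. Depth limits every value: in the 3 shallower libraries 1 fragment was worth 2.02 to 12.5 FPKM for the genes that could be converted.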
